A study of Mus musculus with 16 samples.

Results

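Apob, Mttp, Apoa1, Apoa4, Apoc3, Apoa5, Creb3l3, Dgat1, Dgat2 and Mogat2 are genes of chylomicron production, of apolipoproteins or of their regulation. Each region of the deposited ChIP-seq lists was given to the gene with the transcription start nearest to its summit, within 50 kb, on the mm9 assembly. By that rule 67 of 23511 regions belonged to 9 of these 10 genes, and Apoa5 had no region.

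The study profiled 6 histone marks, H3K27ac, H3K9ac, H3K4me3, H3K4me1, H3K9me3 and H3K27me3, in epithelial cells of the jejunum of C57BL/6 mice at postnatal day 12. The KO neonates carried an intestinal deletion of NCoR1, a corepressor of nuclear receptors that recruits histone deacetylases, and are named ΔIECUN in the labels. The WT neonates are named F/FUN. The design text asks how these marks differ with and without NCoR1. The labels name neither the driver of the deletion nor the meaning of the suffix UN. They do not say whether a library came from 1 animal or from a pool.

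Chylomicrons are the particles in which enterocytes send dietary fat into the lymph, and suckling neonates depend on them because milk is rich in triglyceride. Triglyceride is rebuilt from absorbed monoglyceride and fatty acids in the endoplasmic reticulum, by the monoglyceride acyltransferase Mogat2 and then by the diglyceride acyltransferases Dgat1 and Dgat2. The transfer protein encoded by Mttp loads it onto apolipoprotein B, the product of Apob, and the particle takes up apolipoproteins such as those encoded by Apoa1, Apoa4 and Apoc3. Creb3l3 encodes a membrane-bound transcription factor of the endoplasmic reticulum that activates several apolipoprotein genes. H3K27ac and H3K9ac sit at active promoters and enhancers, H3K4me3 at active promoters and H3K4me1 at enhancers. H3K9me3 and H3K27me3 are found where transcription is repressed.

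With 1 library for each mark and genotype, no difference could be set against replicate error and none was tested. The 12 ChIP libraries held 27946003 to 47976125 tags, and 23925163 to 32444815 tags after filtering. Each list holds regions where the library of one genotype exceeded that of the other, called KO-higher or WT-higher here. The files labelled KO for H3K4me1 and H3K27me3 repeat the WT lists, so these marks could only be followed as WT-higher. Of 8 enterocyte markers, 6 had KO-higher H3K27ac, against 11.6% of all genes, and 5 had KO-higher H3K9ac, against 4.02%. Another, Anpep, was WT-higher for H3K27ac, H3K9ac and H3K4me3, and Lct, counted among the 6, was also WT-higher for H3K4me3. Vil1, counted for both acetylation marks, was also listed for KO-higher H3K4me3 and H3K9me3, with folds of up to 50.9 and 71.0. Its listing is therefore not particular to acetylation. Of 5 immune and 7 stromal, endothelial and muscle markers, 0 were listed for acetylation in either direction, where WT-higher H3K27ac and H3K9ac were listed at 7.58% and 7.63% of all genes. Of 8 secretory cell markers, Chga was listed in both directions, and of 5 liver markers, Cps1 was KO-higher and Serpina1a WT-higher for acetylation. WT-higher H3K4me1 was listed at 3 of the 5 liver markers, Ahsg, Cps1 and Serpina1a, against 7.61% of all genes. Serpina1a was also listed for WT-higher H3K4me3, as were 15.3% of all genes. These lists hold differences and not levels, so they do not show which cells were present.

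In the sentences that follow, the KO value of a KO-higher region is the authors' pileup, the number of overlapping tags at its summit, scaled to the smaller library. The WT value is the local background in the WT library that the authors' fold implies, with a pseudocount of 1 on both sides. That background draws on windows of up to 10 kb and need not equal the WT pileup at the summit itself. For WT-higher regions the roles of the libraries are exchanged. A region with few tags passes the q cutoff only with a large fold, while one with many tags passes with a small fold. Large folds and low signal therefore go together in these lists in part by construction.

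Acetylation at the chylomicron genes was listed only as higher in KO cells. Of the 10 genes, 9 had at least 1 KO-higher H3K27ac region, against 11.6% of all 21693 protein-coding genes. KO-higher H3K9ac regions were listed at 6 of the 10, namely Apob, Mttp, Apoa1, Creb3l3, Dgat2 and Mogat2, against 4.02% of all genes. These 6 genes carried both acetylation marks, as did 3.31% of all genes. At a −log10 q of at least 5, H3K9ac remained at 3 of them, Apob, Mttp and Apoa1. WT-higher H3K27ac was listed at 0 of the 10 (7.58% of all genes) and WT-higher H3K9ac at 0 of the 10 (7.63%). With only 10 genes, 0 is close to these shares. Regions of 1 gene share their libraries and are not replicates. Genes that are silent in the gut are part of the background, so it is not a background of active genes. The 10 genes were also chosen with earlier results of these data known. Their shares therefore describe the lists and are no independent evidence of enrichment.

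The other marks were listed at few of these genes. KO-higher H3K4me3 had 1 region, at Apob, where 0.3% of all genes had one. WT-higher H3K4me3 had 1 region, at Creb3l3, where 15.3% of all genes had one. WT-higher H3K4me1 had 1 region, at Mttp, where 7.61% of all genes had one. KO-higher H3K9me3 (2.28% of all genes), WT-higher H3K9me3 (1.09%) and WT-higher H3K27me3 (0.867%) were each listed at 0 of the 10 genes.

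**Figure D1:**
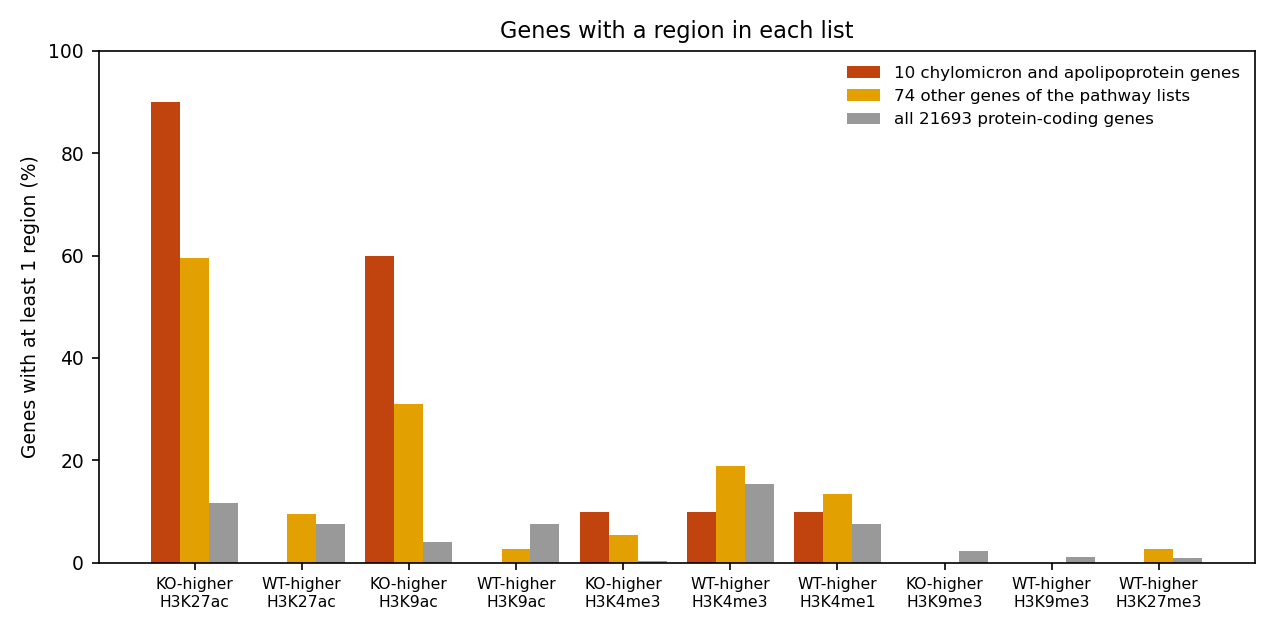
Percent of genes with at least 1 region within 50 kb of a start (vertical axis) in each of the 10 lists (horizontal axis), for the 10 chylomicron and apolipoprotein genes, the 74 other genes of the pathway lists and all 21693 protein-coding genes. The bars of the 10 genes reach 90% for KO-higher H3K27ac and 60% for KO-higher H3K9ac, and they are absent for WT-higher acetylation.

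Direction can also be counted over regions. All 42 H3K27ac regions of these genes were KO-higher, a share of 100% (exact 95% interval 91.6% to 100%), against 73.9% of all H3K27ac regions. All 22 H3K9ac regions were KO-higher, a share of 100% (exact 95% interval 84.6% to 100%), against 46.7% of all H3K9ac regions. These intervals cover counting error only and treat regions as independent, which neighbouring regions are not. They make no allowance for genes chosen with earlier results of these data known.

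The 42 H3K27ac regions had modest folds over high signal. Their folds ran from 1.40 to 3.80 with a median of 1.95, against a median of 2.52 over the whole KO-higher H3K27ac list. Of the 42, 33 lay below the list's median fold, while 35 lay above its median pileup. The median KO pileup was 114 tags, against 71 tags over the list. The median WT background was 58 tags, against 26.8 tags over the list. The WT background lay above the list's median at 35 of the 42 regions. At Apob, 4 of 6 regions lay below that median.

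Of the 22 H3K9ac regions, Apob and Mttp supplied 17. All 5 regions of Apoa1, Creb3l3, Dgat2 and Mogat2 had folds below the list's median. Over all 22, folds ran from 1.47 to 5.89 with a median of 3.27, against 2.91 over the KO-higher H3K9ac list. The median KO pileup was 47.4 tags, against 53.3 tags over the list, and the median WT background was 16 tags, against 17 tags. Most regions of both marks lay away from starts. Within 1 kb of a start were 7 of 42 H3K27ac regions (16.7%, against 11.7% of the list regions within 50 kb) and 3 of 22 H3K9ac regions (13.6%, against 19%). Introns held 22 of the H3K27ac summits and 11 of the H3K9ac summits.

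**Figure D2:**
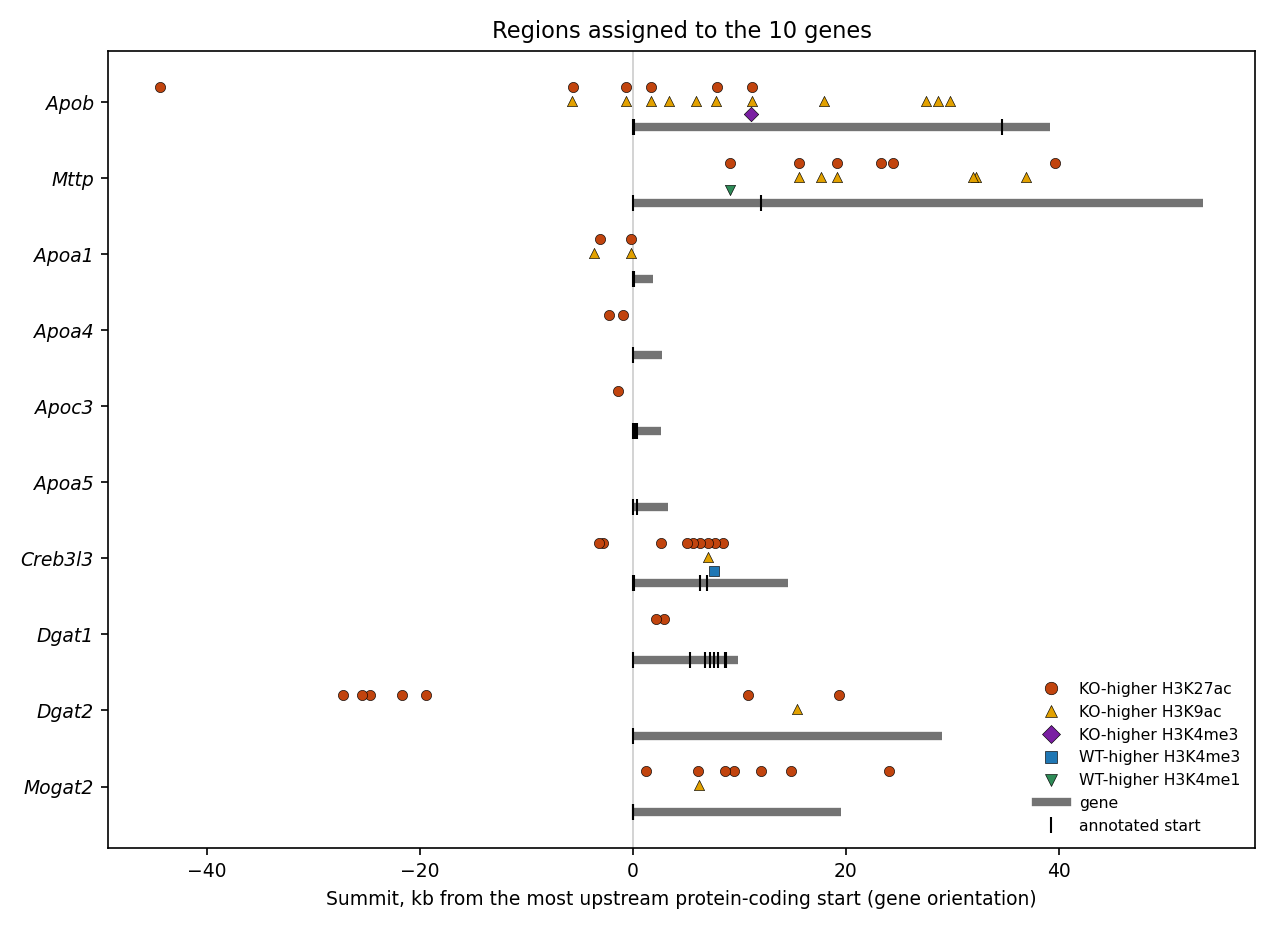
Summits of the 67 regions by gene, as distance in kb from the gene's most upstream protein-coding start, negative values lying upstream. Grey bars are the genes and black ticks their annotated starts. KO-higher H3K27ac and H3K9ac run through Apob and Mttp, 5 KO-higher H3K27ac summits lie upstream of Dgat2, and Apoa5 has no summit.

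Sequences of 5 stretches on which the results turn are given first, from the mm9 genome, plus strand, 5′ to 3′. They are the Apob stretch listed for 3 marks, the Apob stretch with the highest fold of any acetylation region, the Apoa1 promoter region, and the stretches of Mttp and Creb3l3 where marks of opposite direction share bases. Capitals mark matches, on either strand, to AGGTCA, the half-site of many nuclear receptors, or to TTTATTG, a core of CDX homeodomain sites.
Apob, 3 marks, chr12:7995513-7995739: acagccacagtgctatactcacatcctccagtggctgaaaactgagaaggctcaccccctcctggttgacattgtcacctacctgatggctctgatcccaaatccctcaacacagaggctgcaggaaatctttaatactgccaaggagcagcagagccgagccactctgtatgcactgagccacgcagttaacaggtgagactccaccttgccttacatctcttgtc
Apob, upstream, chr12:7978641-7978932: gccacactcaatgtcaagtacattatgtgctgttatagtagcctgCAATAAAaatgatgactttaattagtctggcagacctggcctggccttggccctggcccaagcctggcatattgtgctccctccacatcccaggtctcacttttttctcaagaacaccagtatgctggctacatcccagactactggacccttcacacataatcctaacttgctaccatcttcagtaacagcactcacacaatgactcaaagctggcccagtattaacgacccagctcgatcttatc
Apoa1, promoter, chr9:46036466-46036644: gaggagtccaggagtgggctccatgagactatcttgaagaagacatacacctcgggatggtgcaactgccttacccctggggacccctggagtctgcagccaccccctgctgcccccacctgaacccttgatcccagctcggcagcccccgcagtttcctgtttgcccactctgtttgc
Mttp, shared bases, chr3:137797110-137797266: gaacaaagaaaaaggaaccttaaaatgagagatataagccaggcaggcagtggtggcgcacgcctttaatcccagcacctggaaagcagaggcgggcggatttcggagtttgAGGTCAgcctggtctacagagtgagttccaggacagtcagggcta
Creb3l3, shared bases, chr10:80553848-80554075: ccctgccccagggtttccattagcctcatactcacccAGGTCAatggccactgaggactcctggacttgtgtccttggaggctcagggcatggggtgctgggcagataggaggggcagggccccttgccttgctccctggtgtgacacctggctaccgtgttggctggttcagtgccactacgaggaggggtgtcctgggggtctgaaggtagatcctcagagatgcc

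Apob, on the plus strand of chromosome 12 (chr12:7984454-8023641), encodes the structural protein of the chylomicron and had the most regions, 18 in all. It carried 11 KO-higher H3K9ac regions, and only 13 of the 873 genes in that list, Apob among them, had as many or more. It also carried 6 KO-higher H3K27ac regions and the 1 KO-higher H3K4me3 region. No mark was listed as WT-higher at Apob within 50 kb.

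Just upstream of the Apob start, at -0.6 kb, both acetylation marks were listed. H3K27ac there had a KO value of 145 tags and a WT value of 59.5 tags, a fold of 2.41. H3K9ac had a KO value of 70.4 tags and a WT value of 24 tags, a fold of 2.86. The next pair lay 1.6 kb downstream of a start, with H3K27ac at 99 KO tags and 38.7 WT tags and H3K9ac at 121 KO tags and 44 WT tags. The promoter side of Apob thus held its highest signal of both marks and its lowest folds.

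The largest acetylation folds at Apob belonged to regions with little WT signal. This relation, like the low folds near the start, is in part built into the lists and is no trait of Apob by itself. In the upstream stretch printed above, 5.7 kb before the start, H3K9ac had 22.6 KO tags and 3 WT tags, a fold of 5.89, the highest of all 64 acetylation regions. H3K27ac overlapped it with 28 KO tags and 8.93 WT tags, a fold of 2.92. A run of 3 H3K9ac regions at chr12:8011883-8014328, in coding exons 25 and 26, had folds of 5.75, 4.53 and 3.85, with KO values of 16.3, 21.7 and 29.8 tags and WT values of 2, 4 and 7 tags. No other mark was listed in them. They lie 4.9 to 7.2 kb upstream of the nearest start, an annotated start inside the gene.

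The Apob stretch at chr12:7995513-7995739, over coding exon 10, was the only one of 54 stretches listed for 3 marks, all KO-higher. H3K4me3 had 16.2 KO tags and 2 WT tags there, a fold of 5.75. H3K9ac had 32.5 KO tags and 10 WT tags, and H3K27ac had 25 KO tags and 6.95 WT tags, folds of 3.05 and 3.27. The stretch lies 11 kb inside the gene and not at a start. The −log10 q was 5.17 for H3K4me3, 4.19 for H3K9ac and 4.36 for H3K27ac, so at a −log10 q of at least 5 it was listed for H3K4me3 alone.

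Regions far from Apob were few. The farthest within the limit was a KO-higher H3K27ac region 44.3 kb upstream, with 15 KO tags and 3.97 WT tags and a fold of 3.22. Just outside the limit lay KO-higher H3K27ac regions 66.3 and 71.6 kb upstream, with folds of 3.41 and 4.49, and a WT-higher H3K4me3 region 53961 bp downstream of the nearest start, with a fold of 4.29.

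Mttp, on the minus strand of chromosome 3 (chr3:137752819-137806352), encodes the large subunit of the microsomal triglyceride transfer protein, without which apolipoprotein B is not lipidated. It carried 6 KO-higher H3K27ac and 6 KO-higher H3K9ac regions, all within its introns. At least as many H3K9ac regions were listed at 49 of 873 genes, and at least as many H3K27ac regions at 233 of 2514 genes, counts that include Mttp and, for both marks, Apob.

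H3K27ac folds at Mttp ran from 1.89 to 3.39, with KO values of 36 to 184 tags and WT values of 9.92 to 85.3 tags. H3K9ac folds ran from 2.32 to 4.37, with KO values of 29.8 to 84.9 tags and WT values of 6.93 to 36 tags. The highest fold of each mark lay deep in the gene. For H3K27ac it was in intron 16, with 36 KO tags and 9.92 WT tags. For H3K9ac it was in intron 12, with 37.9 KO tags and 7.90 WT tags.

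In intron 2 of Mttp the marks went in opposite directions over the same bases. At chr3:137797101-137797275 H3K27ac was KO-higher, with 184 KO tags and 85.3 WT tags and a fold of 2.14. H3K4me1 was WT-higher, with a KO background of 13.7 tags and a WT pileup of 48 tags and a fold of 3.34. Over the whole lists, 2.99% of the WT-higher H3K4me1 list overlapped KO-higher H3K27ac. The authors' deposited table places this region in a B1 SINE, a repeat of many copies, as it does 6.99% of the 2774 WT-higher H3K4me1 regions in a SINE of any kind. The part of repeat mapping in either value was not tested.

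RNA values were available for Mttp alone of the 10 genes, in the authors' deposited table. There Mttp had a log2 fold change of 0.59 and an FDR of 1.26e-09, in a column named wt vs. ko. The table does not state the direction. Read as KO over WT, as HOMER names such columns, Mttp RNA was higher in KO, and read as WT over KO it was lower in KO. Of the 1549 genes in the table, 4.97% had a positive value and 9.62% a negative one at an FDR under 0.05. The table covers genes near WT-higher H3K4me1 regions, so the absence of the other 9 genes says nothing of their RNA.

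**Figure D3:**
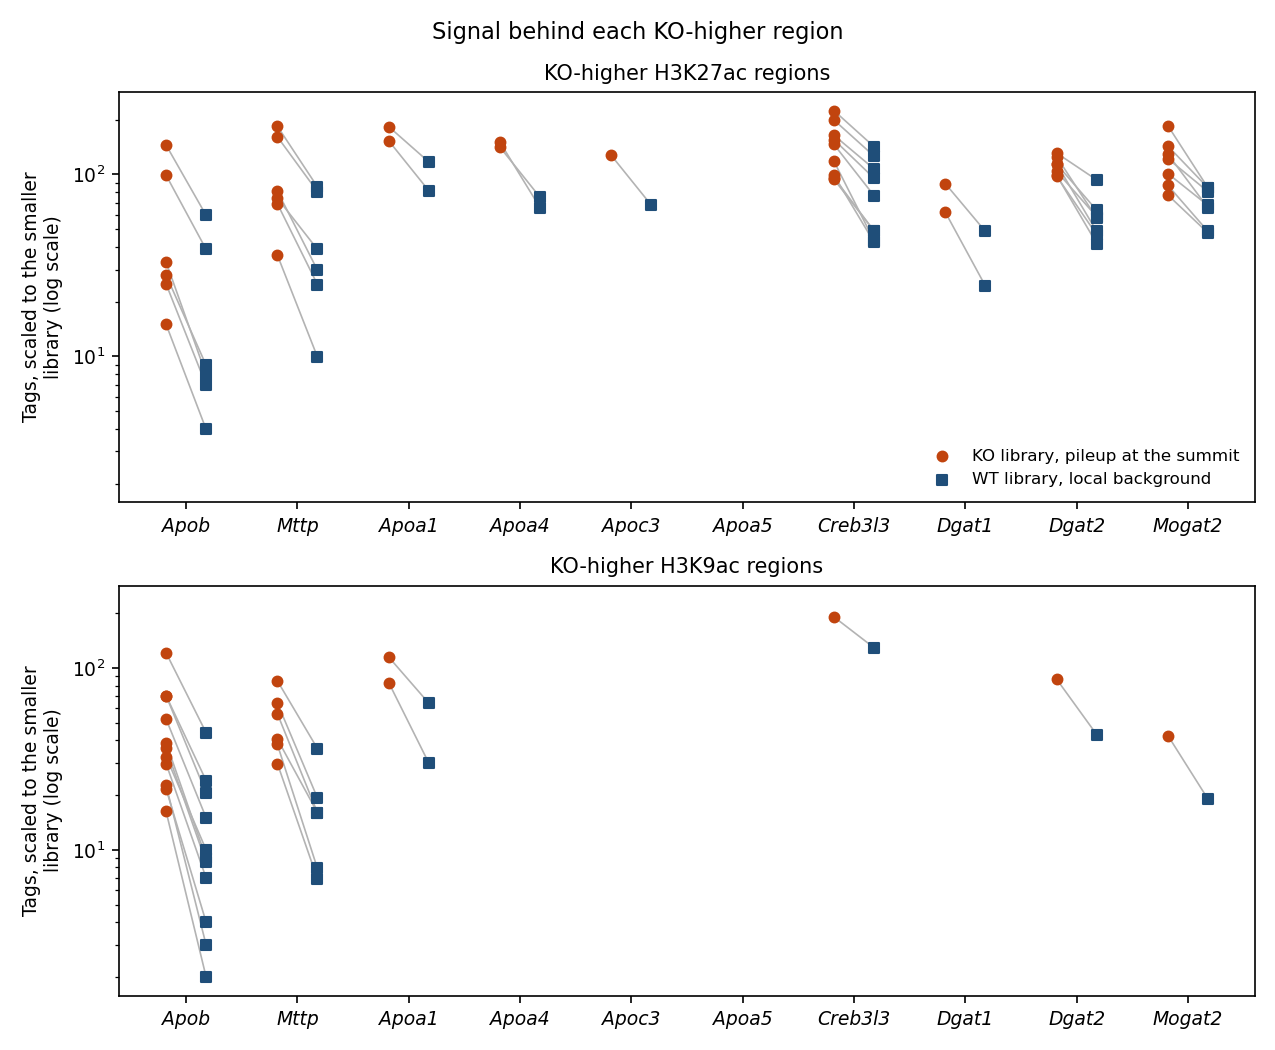
Tags scaled to the smaller library (log scale) behind each KO-higher H3K27ac region (upper panel, 42 regions) and H3K9ac region (lower panel, 22 regions), by gene. Circles are the KO pileup at the summit, squares the WT local background that the authors' fold implies, and lines join values of 1 region. Apob reaches down to 15 KO tags and 3.97 WT tags for H3K27ac, whereas every H3K27ac region of Creb3l3, Dgat2 and Mogat2 has more than 40 WT tags.

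Apoa1, Apoc3, Apoa4 and Apoa5 sit side by side on chromosome 9 and form a conserved apolipoprotein cluster. Their differences were of H3K27ac, with folds from 1.56 to 2.27, and of H3K9ac at Apoa1 only. Apoa1 (chr9:46036663-46038549, plus strand) encodes apolipoprotein A-I, the main protein of high-density lipoprotein. Its promoter region, 118 bp before the start, had 183 KO tags and 117 WT tags of H3K27ac, a fold of 1.56. H3K9ac summited 136 bp before the start with 115 KO tags and 64 WT tags, a fold of 1.78. Farther upstream Apoa1 had H3K27ac at -3.1 kb with 153 KO tags and 81.4 WT tags, and H3K9ac at -3.6 kb with 83.1 KO tags and 30 WT tags. Folds were larger upstream, at 1.87 and 2.71, than at the promoter.

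Apoc3 (chr9:46041016-46043719, minus strand) encodes an apolipoprotein that inhibits triglyceride clearance. Its 1 region was KO-higher H3K27ac 1.3 kb before the start, with 127 KO tags and 67.6 WT tags, a fold of 1.87. Apoa4 (chr9:46048779-46051542, plus strand) encodes apolipoprotein A-IV, made by enterocytes during fat absorption. It had KO-higher H3K27ac at -2.2 kb with 141 KO tags and 74.8 WT tags and at -0.95 kb with 150 KO tags and 65.6 WT tags, folds of 1.87 and 2.27. No H3K9ac region was listed at Apoc3 or Apoa4.

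All 3 of these summits lie in the 5.06 kb between Apoc3 and Apoa4, which are transcribed away from each other. The 2.47 kb between Apoa1 and Apoc3 and the 25.2 kb between Apoa4 and Apoa5 held no summit of any list. Apoa5 (chr9:46076716-46080002), known mainly as a product of liver, had no region. On the other side of the cluster, a further 9 KO-higher H3K27ac and 6 KO-higher H3K9ac regions lay within 50 kb of Apoa1 but nearer to a start of Sik3, a kinase gene. Their folds ran from 1.48 to 3.02 and from 2.37 to 6.03, and the rule gave them to Sik3.

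**Figure D4:**
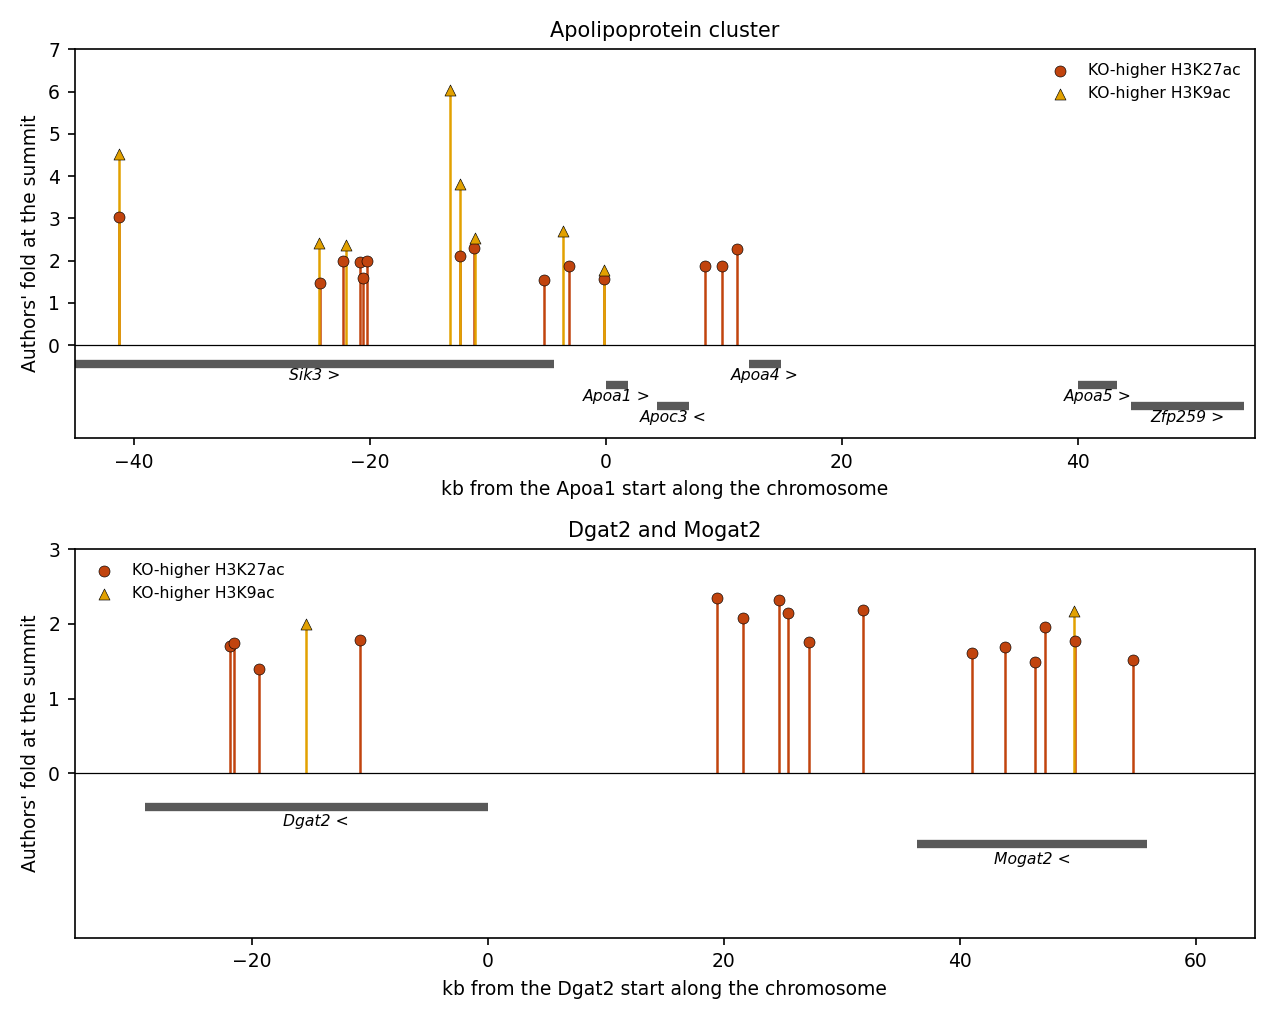
Authors' fold at the summit (vertical axis) of KO-higher H3K27ac and H3K9ac regions against position in kb from the Apoa1 start (upper panel) or the Dgat2 start (lower panel), with genes as bars and arrowheads for their strand. In the upper panel 3 H3K27ac summits stand between Apoc3 and Apoa4 and none beyond Apoa4, and in the lower panel 6 stand between Dgat2 and Mogat2.

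The genes of triglyceride synthesis differed mainly in H3K27ac. Mogat2 (chr7:106367594-106387129, minus strand) and Dgat2 (chr7:106302173-106331223, minus strand) are neighbours on chromosome 7. Each carried 7 KO-higher H3K27ac regions and 1 KO-higher H3K9ac region, and 164 of 2514 genes, these 2 included, had as many or more for H3K27ac. Neither had a region of another mark.

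At Mogat2, H3K27ac folds ran from 1.49 to 2.18, with KO values of 77 to 185 tags and WT values of 47.6 to 84.3 tags. The highest was at chr7:106362980-106363149, beyond the 3′ end of the gene, with 185 KO tags and 84.3 WT tags. The other 6 lay in introns 1 and 2. One of these overlapped the H3K9ac region, which had 42.4 KO tags and 19 WT tags, a fold of 2.17.

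At Dgat2, 5 of the 7 H3K27ac regions lay 19.5 to 27.2 kb upstream of the start, with folds of 1.76 to 2.34, KO values of 98 to 125 tags and WT values of 41.7 to 58.5 tags. Together with the Mogat2 region just named they are the 6 summits in the 36.4 kb between the genes, where no other list had a summit. The nearest start decides which gene a region is given to, and it does not show which gene it acts on. The H3K9ac region of Dgat2 lay in intron 2, with 86.7 KO tags and 43 WT tags, a fold of 1.99. With a distance limit of 10 kb Dgat2 lost its regions of both marks.

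Dgat1 (chr15:76332445-76342381, minus strand), the other diglyceride acyltransferase, had KO-higher H3K27ac in its first intron only. The regions had 62 KO tags and 24.4 WT tags, and 89 KO tags and 48.6 WT tags, with folds of 2.48 and 1.81. Within 50 kb of Dgat1, but nearer to Hsf1, a heat shock factor gene, lay 1 WT-higher H3K27ac and 1 WT-higher H3K9ac region. The only other WT-higher acetylation region within 50 kb of any of the 10 genes was 1 of H3K9ac, near Apoa5 and nearer to 4931429L15Rik.

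Creb3l3 (chr10:80547069-80561619, minus strand) carried 9 KO-higher H3K27ac regions, the most of the 10 genes, and 87 of 2514 genes had as many or more. That rank depends on how regions are split. With regions within 1 kb merged, Creb3l3 had 3, and Apob, Dgat2 and Mogat2 each had 6. Folds of the 9 Creb3l3 regions ran from 1.53 to 2.69, with KO values of 94 to 224 tags and WT values of 42.4 to 142 tags. The highest fold lay 3.2 kb upstream, with 118 KO tags and 43.3 WT tags. The highest signal lay at an annotated start inside the gene, where H3K27ac had 224 KO tags and 142 WT tags, a fold of 1.57. H3K9ac overlapped it with 191 KO tags and 129 WT tags, a fold of 1.47, the lowest of the 22 H3K9ac regions.

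At chr10:80553707-80554088, 0.7 to 0.8 kb downstream of that internal start, Creb3l3 had marks in opposite directions. H3K27ac was KO-higher, with 199 KO tags and 126 WT tags, a fold of 1.57. H3K4me3 was WT-higher, with a KO background of 54.7 tags and a WT pileup of 102 tags, a fold of 1.85. Over the whole lists, 0.624% of the WT-higher H3K4me3 list overlapped KO-higher H3K27ac. Their −log10 q was 5.64 for H3K27ac and 4.46 for H3K4me3, so the H3K4me3 region was lost where a −log10 q of at least 5 was asked.

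The acetylation marks overlapped in part. Of the 22 H3K9ac regions, 10 (45.5%) shared at least 1 base with KO-higher H3K27ac, against 38.9% of the list. Of the 42 H3K27ac regions, 10 (23.8%) shared bases with KO-higher H3K9ac, against 10.2% of the list. These overlaps were at Apob, Mttp, Apoa1, Creb3l3 and Mogat2. When regions that share bases were joined, the 67 became 54 stretches, of which 30 had H3K27ac alone, 12 had H3K9ac alone and 9 had both acetylation marks and no other. Dgat2 held both marks in separate stretches.

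Short motifs were searched on both strands in windows of 300 bases around the summits. AGGTCA was found in 10 of 42 H3K27ac windows (23.8%, against 20.4% of the list), at Creb3l3, Dgat2, Mogat2 and Mttp. It was found in 6 of 22 H3K9ac windows (27.3%, against 19.6%), 3 of them in the Apob cluster of coding exons 25 and 26. TGACG, a cyclic AMP response element half-site of the kind bound by CREB family factors, was found in 16.7% and 18.2% of the windows, against 11.6% and 12.7% of the lists. AGATAA, which factors such as Gata4 bind, was found in 0 of 42 and 0 of 22 windows, where 8.53% and 9.99% of the lists held it. CAAAGTCCA, a core bound by HNF4, was found in 1 H3K27ac window, the one 44.3 kb upstream of Apob, against 0.296% of the list. TTTATTG was found in 1 H3K27ac window, against 2.79% of the list, and in 2 H3K9ac windows, against 3.03%, all at Apob. A match here is a run of letters and not a shown binding site.

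The pathway around these genes was counted with 74 further genes. Of these, KO-higher H3K27ac was listed at 44 (59.5%) and KO-higher H3K9ac at 23 (31.1%), against 11.6% and 4.02% of all genes. WT-higher H3K27ac was listed at 7 (9.46%, against 7.58%) and WT-higher H3K9ac at 2 (2.7%, against 7.63%). KO-higher H3K4me3 was listed at 4 (5.41%, against 0.3%), WT-higher H3K4me3 at 14 (18.9%, against 15.3%) and WT-higher H3K4me1 at 10 (13.5%, against 7.61%). WT-higher H3K27me3 was listed at 2, Abca1 and Ces2a (2.7%, against 0.867%). H3K9me3 was listed at 0 in either direction (2.28% of all genes KO-higher, 1.09% WT-higher). Over the 74 genes acetylation was thus listed in both directions. WT-higher acetylation came only from the lists of fatty acid uptake and activation and of transcription factors. The other lists had 0 genes with WT-higher H3K27ac or H3K9ac. In lists this small, as in the 10 genes, 0 is close to the shares of all genes. Whether the shares of the 10 and the 74 differ was not tested, and both sets were chosen with earlier results of these data known.

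In the uptake and activation of fatty acids, KO-higher H3K27ac was listed at 11 of 14 genes and KO-higher H3K9ac at 5. Acsl3, an acyl-CoA synthetase, and the fatty acid transporter Cd36 had the highest H3K27ac folds, at 5.78 (21 KO tags, 2.80 WT tags) and 4.81 (42 KO tags, 7.94 WT tags). In this list 4 genes had WT-higher H3K27ac, namely Acsl1, Acsl5, Lpin2 and Mogat1, and the first 3 of these had KO-higher H3K27ac elsewhere. In assembly and export, KO-higher H3K27ac was listed at 10 of 14 genes and KO-higher H3K9ac at 7. Mia2, a receptor for the export of large cargo from the endoplasmic reticulum, had an H3K9ac fold of 7.01 (55.1 KO tags, 7 WT tags). Plin2, a lipid droplet coat protein, had an H3K9ac fold of 6.04 (35.2 KO tags, 5 WT tags). WT-higher H3K4me3 was listed at 4 of these 14.

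Of 7 genes of cholesterol absorption and esterification, 6 were listed for KO-higher H3K27ac, 4 for KO-higher H3K9ac and 3 for KO-higher H3K4me3. These 3 were the sterol transporters Abca1, Abcg5 and Abcg8. Abca1 had an H3K27ac fold of 8.80 (34 KO tags, 2.98 WT tags). Marks were listed in the other direction too. WT-higher H3K4me1 was listed at 3 of the 7, Abca1, Abcg5 and Scarb1, against 7.61% of all genes. Scarb1 was listed for WT-higher H3K4me3 (15.3% of all genes) and Abca1 for WT-higher H3K27me3 (0.867%). Of 11 genes for other apolipoproteins and for the Apob editing enzyme Apobec1, 5 had KO-higher H3K27ac, with Apoh, Apobec1 and Apoc2 highest at 4.89, 3.16 and 2.39. Only Apoc2, which activates lipoprotein lipase, had KO-higher H3K9ac. Of 8 genes of lipid droplet hydrolysis, 5 and 2 had KO-higher H3K27ac and H3K9ac. The highest H3K27ac folds there were those of Ces2a, Lipe and Lipa, at 4.02, 3.74 and 3.65.

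Of 14 genes for transcription factors that act on apolipoprotein genes, 6 had KO-higher H3K27ac, with Ppara, Nr1h4 and Hnf4g highest by fold. Ppara, a fatty acid receptor, had the highest folds, at 6.75 for H3K27ac (115 KO tags, 16.2 WT tags) and 7.11 for H3K9ac (33.4 KO tags, 3.84 WT tags). Nr1h4, the bile acid receptor, had folds of 4.59 and 5.10. WT-higher H3K27ac was listed at the nuclear receptor genes Nr5a2, Rora and Rxra, with folds of 4.43, 2.60 and 2.23. WT-higher H3K9ac was listed at Prox1 (7.63% of all genes). WT-higher H3K4me3 was listed at 5 of the 14, against 15.3% of all genes, with Rora, Nr1h3 and Hnf4a highest by fold. Hnf4a, counted among the 6 with KO-higher H3K27ac, thus had marks in both directions. Of 6 neighbours of the apolipoprotein cluster, 1, Sik3, had KO-higher acetylation.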

How the data were processed

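Each ChIP-seq library (6 marks, KO and WT, 1 library each) was read in single-end runs of 50 cycles, which the authors aligned to mm9, per the labels' protocols. HOMER 3.12, MACS2 2.1.1, Bowtie2 2.2.9 and CASAVA 1.8.2 are named, per the submitters' processing notes. Region calling used MACS 2.0.10.20130419, per the file headers, against the library of the other genotype, at a q cutoff of 0.05, keeping 1 tag per position. The headers give a tag size of 75 bp, which differs from 50 cycles and was not resolved. Filtering kept 56.0% of KO and 64.3% of WT H3K9ac tags, the lowest of the 10 libraries whose lists were used. The 4 input libraries were not used.

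The deposited values are the authors' pileup (a signal at the summit), the fold (a ratio to the local background, with a pseudocount of 1), and −log10 of the p-value and q-value, per the file headers. The local background of the other genotype was computed as (pileup + 1)/fold − 1. The authors' −log10 p was recovered from it, within 0.01, for all regions of 9 lists and 1814 of 1816 KO-higher H3K9me3 regions. Of 12 deposited lists, 2 repeat another, so 10 were used. For RNA, the authors' log2 fold change and FDR (an adjusted p-value) come from the deposited annotated H3K4me1 table. Its 12 per-library RNA columns match no sample here and were not used. The direction is not stated there.

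Summits were assigned to the nearest start of a protein-coding GENCODE gene on mm9. Positions are 1-based. Regions were shared at 1 bp or more. Exact binomial intervals are at 95%. Python 3.11.15, numpy 2.4.6, pandas 2.3.3, scipy 1.17.1 and matplotlib 3.10.9 were used, and the assignment was tested on simulated data. Of 16 assembly and export genes, 14 are in the gene models. The 10 genes and the other lists were chosen with earlier results of these data known. All 10 are named, with the regions of highest fold per list, and of each further pathway list the 3 genes with the highest fold per list and direction could be named. Alternatives were the distance limit, the gene models, stricter q and fold thresholds, the overlap, and merging within 1 kb.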

Additional observations from a re-analysis of the deposited data

How the results depend on the processing

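Of 129 values computed under alternatives, 107 counted as unchanged, a count within 1.5 times the reported one or a share within its interval, and 22 moved. Of the 107, 55 were 0 under both settings. Directions of H3K27ac and H3K9ac held in every alternative that left regions. Most alternatives could not have changed them, since they only keep, drop or join regions already KO-higher. Only the limit of 100 kb could have added WT-higher acetylation, and it added 0 regions. At a −log10 q of at least 5, KO-higher H3K27ac stayed at 9 genes with 28 regions. KO-higher H3K9ac remained at 3 genes (Apob, Mttp, Apoa1) and shared 4 regions with KO-higher H3K27ac. The WT-higher H3K4me3 region of Creb3l3 was lost, leaving 0 genes, 0 regions and 0 shared, and the KO-higher share of H3K4me3 was 100%. The KO-higher H3K4me3 region of Apob shared bases with 0 KO-higher H3K27ac and 0 KO-higher H3K9ac regions. At a fold of at least 4, KO-higher H3K27ac had 0 genes and 0 regions, KO-higher H3K9ac had 2 genes (Apob, Mttp) and 4 regions, and WT-higher H3K4me3 and H3K4me1 had 0 of both. A limit of 10 kb left 27 KO-higher H3K27ac regions at 8 genes, 0 KO-higher H3K4me3 regions and genes, and a KO-higher share of H3K4me3 of 0%. A limit of 100 kb gave 2 WT-higher H3K4me3 regions at 2 genes, Apob being added. Losses under stricter thresholds follow from fewer regions. With all gene models the counts were identical.

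No paired analysis was possible because each mark and genotype had 1 library and no result comes from a test. Without replicates no difference was set against variation between animals. The lowest pileup of a KO-higher H3K27ac region was 15 tags, at Apob, and the highest 224 tags, at Creb3l3.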
